A study of Canis lupus familiaris with 51 samples.

Results

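The comparison was made within the differentiated class of canine cutaneous mast cell tumors (MCTs), between the 13 tumors that the study had set as differentiated references and the 26 further tumors that its class prediction placed in the same class. The 2 groups hold 39 of the 51 tumors of the series, and the other 12 tumors form the undifferentiated class. References were chosen by histological grade and mitotic index, all of low grade in the 2-tier scheme, and with a set of undifferentiated references they trained the prediction. The predicted tumors were of unknown class to the method and entered the class through the expression of 13 marker genes. According to the paper, all pathologists agreed on the references, while the tumors of unknown class were those without agreement on grade. Each sample was an aliquot from the middle of a spontaneous tumor removed at surgery, and its total RNA was hybridized to an Agilent canine array with 1 color. The labels give no treatment or genotype for either group. Such tissue holds skin, vessel and infiltrating cells beside the tumor cells.

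Mast cells are tissue-resident immune cells that carry the receptor tyrosine kinase KIT and the high-affinity IgE receptor, and that store proteases and amines in granules. In dogs they give rise to one of the most common skin tumors, whose behavior runs from benign to metastatic. Grading rests on how far the cells keep the look of mature mast cells and on how many of them divide, so genes of the cell cycle and of the mast cell granule are the natural readouts of how alike the tumors of a class are.

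Neither sex nor age differed between the groups beyond the tests' threshold. Of the references 8 were labeled female and 5 male, and of the predicted tumors 18 female, 7 male and 1 without a sex (Fisher's exact test, two-sided, p = 0.714). Mean age was 7.23 ± 2.86 years (SD, n = 13) in the references and 8.62 ± 2.26 years (SD, n = 25) in the predicted tumors (permutation test, two-sided, p = 0.123), with ranges of 3 to 13 and 4 to 13 years. Boxers made up 4 of the references and 3 of the predicted tumors, crossbred dogs 2 and 9, and Labrador Retrievers 1 and 6. The arrays lay on 15 slides, of which 7 held both groups, with 11 references and 13 predicted tumors on them. Where slide was taken as a block, the difference rests on these 7 slides and leaves out the tumors of the others. Between 66.6% and 72.6% of spots were well above background on the reference arrays, and between 59.4% and 74.8% on the predicted ones, of which T6, T12 and T91 were the dimmest, all under 62%.

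Probes for sex-linked transcripts separated the arrays by labeled sex with 2 exceptions, both predicted tumors scanned in the same session. Probe CX010851 read at most 3.97 on the log2 scale on 25 arrays labeled female and 12.61 to 13.26 on 11 labeled male, but 12.51 on T113, labeled female, and 2.07 on T103, labeled male. JARID1D, a histone demethylase gene of the Y chromosome, read 10.66 on T113 and 6.76 on T103, against 5.90 to 7.49 on the other arrays labeled female and 10.19 to 11.09 on the other arrays labeled male. The X-linked probe DN266360 went the opposite way, with 3.02 on T113 and 10.84 on T103. At DN266360 alone T51, labeled female, was also low, at 2.06. Both tumors belong to the predicted group, so an exchange between them would leave both groups as they are. On T53, which has no labeled sex, CX010851 read 2.12.

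No probe passed the test between the groups. Of 43603 probes tested with limma, 0 (0%) passed a Benjamini-Hochberg adjusted p of 0.05, the lowest adjusted p being 0.977, and 1343 (3.08%) had an unadjusted p under 0.05. Of these, 626 (1.44% of the probes) were higher and 717 (1.64%) lower in predicted tumors. A fit over all 51 arrays also called 0, and so did the methods' t-test at the study's limits, an adjusted p of 0.01 and a fold of 2. The same limits on the unadjusted p, which the study did not use, gave 18 probes. Without T103 and T113 limma called 0 probes as well.

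The width of the intervals says how large a difference the arrays could still hold. A probe was counted as bright where it was well above background on at least 7 of 13 reference or 13 of 26 predicted arrays, which 30511 probes were. For 27473 of them the 95% interval of the difference lay within 2-fold in either direction, and for the other 3038 it reached beyond. The median absolute difference of the bright probes was 0.10 on the log2 scale, 95.3% differed by under 0.5, and 213 (0.698%) by more than 1. The same 39 arrays did yield calls for other contrasts. The labeled sex gave 23 probes (0.0527%), or 32 without T103 and T113, and the slide on which an array lay gave 6175 (14.2%).

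Genes that mark mast cells were high in both groups. KIT, the stem cell factor receptor, read 12.50, 13.23 and 14.02 (lowest, median and highest log2 intensity) in references and 12.31, 13.35 and 14.83 in predicted tumors, a difference of 0.19 (95% interval -0.26 to 0.63). MS4A2, the beta chain of the IgE receptor, had medians of 15.68 and 15.75, and the mast cell chymase CMA1 medians of 16.81 and 16.88. SLC18A2, which loads amines into granules, had the lowest p of the 12 mast cell genes measured, with medians of 11.33 and 11.89 and a difference of 0.42 (interval -0.04 to 0.88, adjusted p = 0.977 in limma). Of the 12 genes 8 were higher and 4 lower in predicted tumors, and their median difference was 0.11, or 0.0445 with slide as a block, against 0.01 over the 11592 genes with a symbol. The mean level of the list ran from 11.65 to 12.80 in references and from 11.60 to 13.20 in predicted tumors, 9 of which lay above the highest reference.

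The marker genes of the class prediction are given as a description only, since they decided which tumors entered the predicted group. FOXM1, a transcription factor of the cell cycle, read 5.47, 6.83 and 8.41 in references, 5.30, 7.34 and 8.15 in predicted tumors and 8.40, 9.25 and 10.22 in undifferentiated ones. PRC1, which bundles microtubules at division, had medians of 8.16, 8.36 and 10.58 in the same order. GSN, the actin-severing gelsolin and the one marker that was lower in undifferentiated tumors, had medians of 17.96 in references and 17.74 in predicted tumors and ran from 15.75 to 17.73 in undifferentiated ones. At the brightest probe of each of the 12 markers matched by name, up to 11 of 26 predicted tumors lay outside the reference range. That number was reached by CDCA8, a subunit of the chromosomal passenger complex, and it counts tumors below the reference range as well as above it. At CDCA8 the predicted tumors ran from 5.70 to 8.33, and the highest reference read 7.68. The undifferentiated tumors read 6.48, 7.60 and 8.05 at this probe, all within the range of the predicted ones. FEN1, a flap endonuclease, followed with 9.

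**Figure D1:**
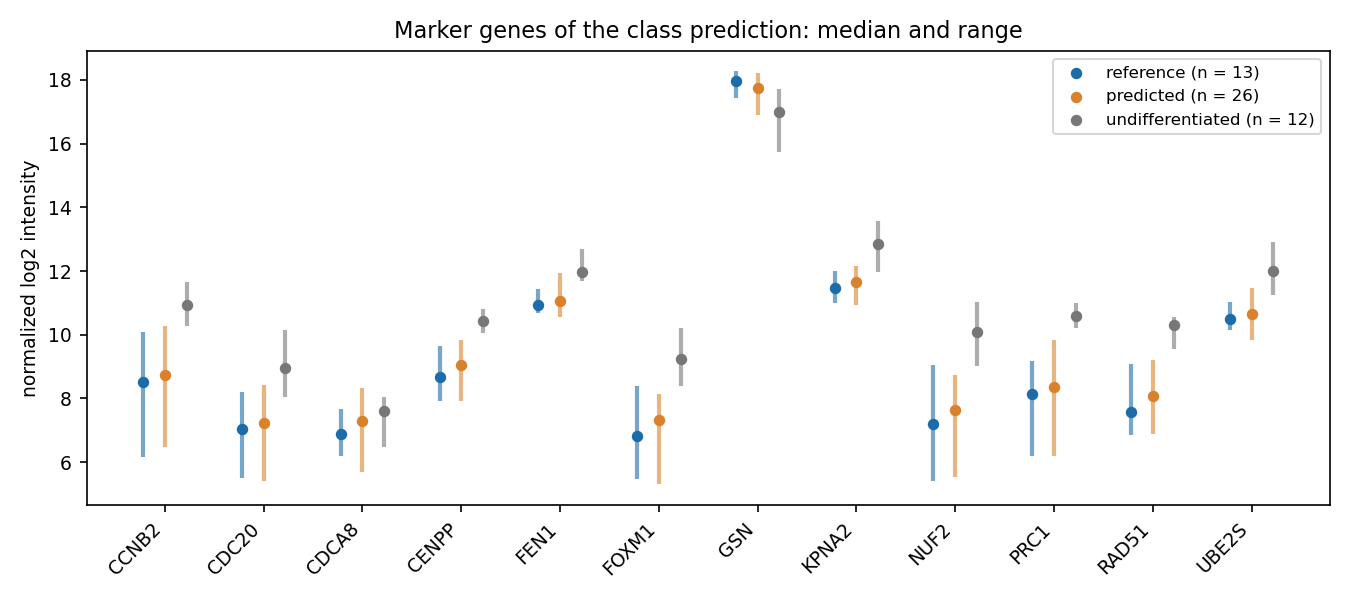
Normalized log2 intensity of the brightest probe of each of 12 marker genes, with points at the median and lines from the lowest to the highest array of the 13 reference, 26 predicted and 12 undifferentiated tumors. The lines of reference and predicted tumors overlap at every gene, and the median of GSN is lower in undifferentiated tumors where the medians of the other genes are higher.

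The widest difference among bright probes was at a beta-defensin, a family of small antimicrobial peptides of epithelia and the male tract. The probe, named ENSCAFT00000038484 and described as a beta-defensin in the array files, which place it at chr24:23940642-23940701 (plus strand, build not named in the files), was singled out after its values were seen. It is shown with the probe of its neighbor DEFB3L, at chr24:23914232-23914291 (minus strand), because DEFB3L had the lowest p of the named genes that were higher in predicted tumors and the probes share a run of 19 bases, in capitals.
ENSCAFT00000038484: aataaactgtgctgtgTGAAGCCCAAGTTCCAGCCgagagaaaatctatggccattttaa
DEFB3L: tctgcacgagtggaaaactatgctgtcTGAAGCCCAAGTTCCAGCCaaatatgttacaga

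The ENSCAFT00000038484 probe was at background in some references and well above it in every predicted tumor. In the references it read 1.95 in T50, 2.23 in T92 and T112, 2.26 in T100 and 2.29 in T130, and in the other 8 it read from 8.17 in T84 to 11.54 in T131. In the 26 predicted tumors it read 8.45, 11.43 and 13.52. The 5 low references were well separated from all other arrays of the class, with no value between 2.29 and 8.17, and none of them was well above background. The fitted difference was 4.15 (95% interval 2.38 to 5.92), with an unadjusted p of 2.83e-05 and an adjusted p of 0.977 in limma, and it was 4.08 with slide as a block and positive on 6 of 7 slides that held both groups. Since the reference values fell into a low and a high set, the fitted mean of the references describes neither. What the low values at this single probe reflect was not tested. Of the 12 undifferentiated tumors 3 were also low, at 2.02, 2.08 and 2.22, and the other 9 read from 9.09 to 14.21.

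The low references were 2 of the 4 reference Boxers, a pit bull, a Boston Terrier and a Dalmatian. The other 2 reference Boxers read 8.17 and 10.15, and the 3 predicted Boxers 11.39, 11.58 and 11.76. No crossbred dog or Labrador Retriever of either group was low. Of the 3 low undifferentiated tumors T114 was from a Boxer, T77 from a Bouvier des Flandres, and T132 had no labeled breed. The undifferentiated Boxer T115 read 11.16. Breeds were unequal between the groups, and a link of the level to breed was not tested. The 5 low references lay on slides that also held arrays with a high level. DEFB3L read 1.73, 4.12 and 5.34 in references and 2.73, 5.29 and 7.62 in predicted tumors, a difference of 1.62 (interval 0.72 to 2.51), and was well above background on 7 of 13 and 19 of 26 arrays. In the 5 references with the low ENSCAFT00000038484 level it read from 1.79 to 4.12, and in T62, where that probe read 8.29, it was lowest, at 1.73. Whether the DEFB3L probe also takes up ENSCAFT00000038484 transcripts through the shared bases was not tested. Of the other 3 DEFB3L probes of the array, 2 were near background throughout the class and 1 was well above it on 4 predicted arrays and on no reference, so they give no usable difference. A further probe is named DEFB122 in the array files, the symbol that RefSeq gives to DEFB3L. It was well above background on 13 of 13 references and 24 of 26 predicted tumors, and it differed by -0.02 (adjusted p = 0.997 in limma). The difference of 1.62 was thus not seen at that probe. Of 49 beta-defensin probes, 24 of them on chromosome 24, 3 had an unadjusted p under 0.05, where 3.08% of all probes did, the ENSCAFT00000038484 probe and 2 DEFB3L probes that overlap each other. Of the 49 probes 13 were bright. DEFB124, the next gene on the chromosome, was bright and differed by -0.07 at both of its well measured probes.

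**Figure D2:**
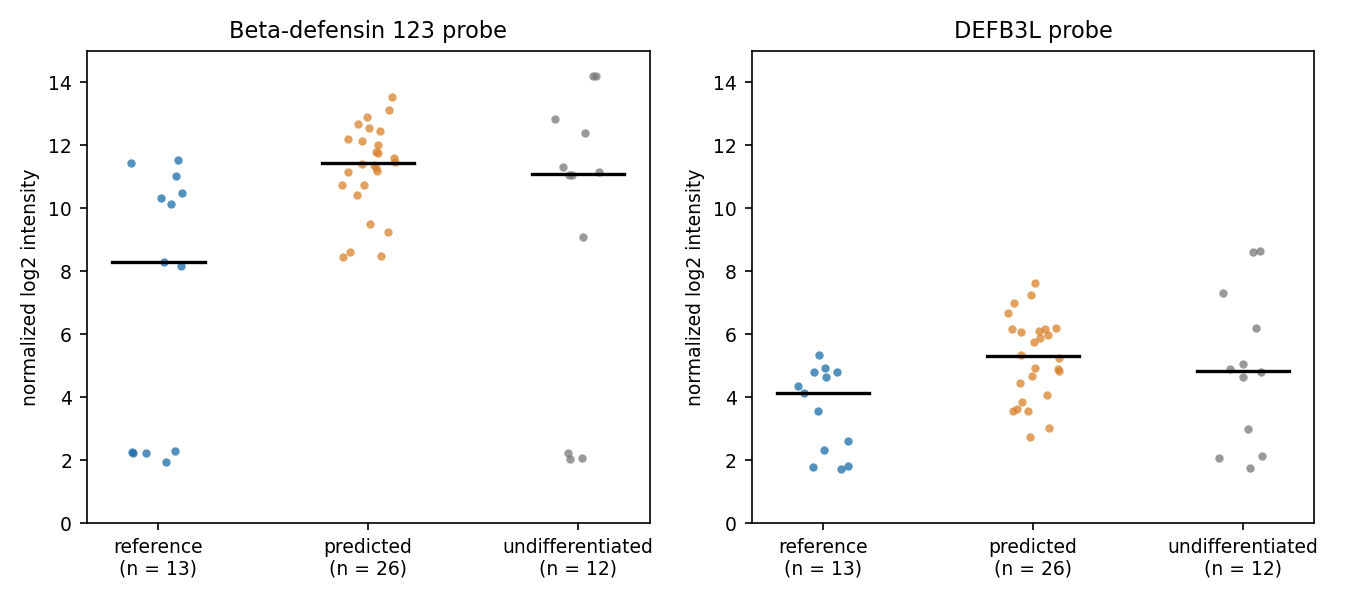
Normalized log2 intensity of the ENSCAFT00000038484 probe and of the DEFB3L probe on each array of the reference, predicted and undifferentiated tumors, with a line at the median. At the ENSCAFT00000038484 probe 5 references and 3 undifferentiated tumors lie between 1.95 and 2.29 and all other arrays at 8.17 or above.

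Of the 10 genes with the lowest p and a higher mean in predicted tumors, none passed the test. CCL7, a chemokine that draws monocytes, was seldom measured in references. It read 1.76, 2.66 and 6.51 in references and 1.80, 5.22 and 8.93 in predicted tumors, and it was well above background on 2 of 13 reference arrays and on 16 of 26 predicted ones. It met the limit for bright probes through the predicted group alone, so the fitted difference of 1.99 is taken mostly against values near background and gives no exact size. The groups overlapped over most of their range, with 5 predicted tumors above the highest reference. ACSL4 activates arachidonic acid, the precursor of mast cell prostaglandins and leukotrienes. It read 11.41, 11.96 and 12.86 against 11.36, 12.57 and 13.90, a difference of 0.57 (interval 0.21 to 0.94). GPAT3, an acyltransferase of glycerolipid synthesis, differed by 0.56 (interval 0.22 to 0.91).

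The other genes on the higher side differed by less than 2-fold. They were TNKS2, a tankyrase, at 0.59, SOCS6, a suppressor of cytokine signals that binds activated KIT, at 0.41, SIPA1L1, which acts on the GTPase Rap, at 0.41, HIF1A, the oxygen-regulated transcription factor, at 0.40, CBFB, the partner of the RUNX factors, at 0.30 and EMC3, a subunit of an endoplasmic reticulum insertase, at 0.18. CBFB stood above the reference median in 25 of 26 predicted tumors and EMC3 in 24. These counts describe genes chosen for their low p, and each had an adjusted p of 0.977.

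None of the 10 genes with the lowest p on the lower side passed the test either. FBLN1, the matrix protein fibulin, read 8.32, 10.38 and 11.40 in references and 7.89, 9.28 and 11.01 in predicted tumors, a difference of -0.85 (interval -1.40 to -0.30). A second and brighter FBLN1 probe differed by -0.60 (interval -1.13 to -0.07). IGFBP3, which binds insulin-like growth factors, differed by -1.29 (interval -2.15 to -0.43), from 6.62, 7.91 and 11.02 to 4.01, 6.85 and 9.21. CALCRL, the adrenomedullin receptor of endothelium, differed by -0.65, and 2 of 26 predicted tumors stood above the reference median. FAT4, an atypical cadherin, differed by -0.88.

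The lowest p on this side belonged to CD99, a surface protein used by leukocytes to cross endothelium, which read 13.37, 13.89 and 14.27 in references and 12.50, 13.34 and 14.07 in predicted tumors, a difference of -0.49 (interval -0.75 to -0.24, unadjusted p = 0.000326). PKHD1L1, a large membrane protein of the fibrocystin family, had the widest difference of the 10, -1.78 (interval -2.86 to -0.69), with predicted tumors spread from 1.69 to 10.82 against 7.22 to 10.53 in references. The calpain CAPN2 differed by -0.46, the anion exchanger SLC4A3 by -0.87, UBAC1, a part of a ubiquitin ligase, by -0.31 and the glutathione peroxidase GPX1 by -0.28. With slide as a block all 20 genes kept their sign, and 4 moved by more than 1.5 times, TNKS2 to 0.30, CBFB to 0.19, EMC3 to 0.12 and CALCRL to -0.43.

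**Figure D3:**
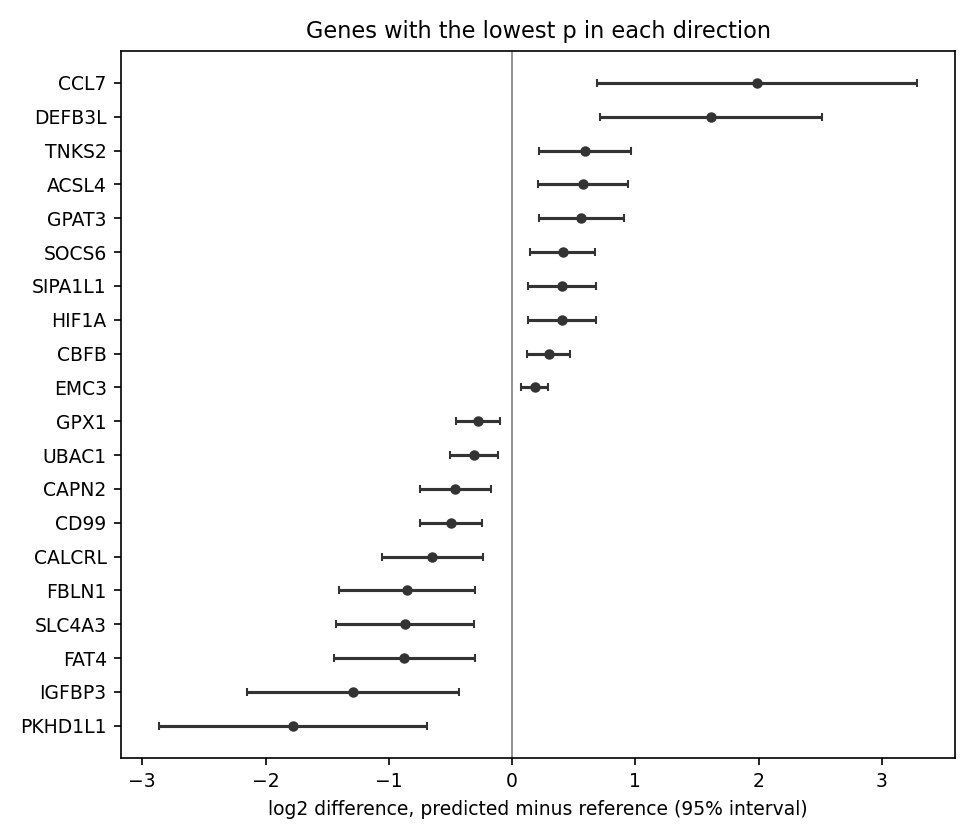
Log2 difference of predicted minus reference tumors for the 20 named genes, with points at the fitted difference and bars for the 95% interval from limma. No gene passed the adjusted p of 0.05, and the value of CCL7 rests on references near background on all but 2 arrays.

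Genes of cell division leaned to the higher side in predicted tumors, without a call. Of 64 M phase genes measured, 61 were higher and 3 lower, with a median difference of 0.26, where 6274 of 11592 genes with a symbol (54.1%) were higher and the median was 0.01. The genes of a list share the same arrays and are no independent signs, and 6 of the 64 are markers of the class prediction. References were chosen by mitotic index among other criteria, and predicted tumors by markers mostly of the cell cycle. The level of the whole list is therefore not independent of how the groups were made. Unadjusted p values under 0.05 were found for 5 of the 64, all higher and none of them a marker, where 171 of the 11592 genes were higher at that limit. KIF2C, a kinesin that depolymerizes spindle microtubules, read 5.64, 6.23 and 6.91 in references and 5.77, 6.58 and 7.64 in predicted tumors, a difference of 0.43 (interval 0.12 to 0.74). TACC3, which stabilizes spindle fibers, differed by 0.43 (interval 0.09 to 0.77). The mean level of the list was 6.16, 6.80 and 7.83 in references and 6.27, 7.23 and 7.90 in predicted tumors, against 8.03 to 9.43 in undifferentiated ones. Of the predicted tumors T58 alone exceeded the highest reference. With slide as a block, chosen after the data were seen, the median difference of the list was 0.09.

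Of 34 DNA replication genes 30 were higher and 4 lower in predicted tumors, with a median difference of 0.11, or 0.0536 with slide as a block. An unadjusted p under 0.05 was found for 2 of the 34, both higher, where 171 of the 11592 genes were higher at that limit. One of the 34, FEN1, is a marker of the class prediction, and this list too is not independent of how the groups were made. GINS4, a subunit of the replicative helicase, read 5.75, 7.90 and 8.75 against 7.48, 8.22 and 9.21, a difference of 0.57 (interval 0.16 to 0.97). RFC4, a subunit of the clamp loader, differed by 0.31 (interval 0.06 to 0.56).

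Genes of connective tissue leaned to the lower side. Of 32 collagens and other matrix genes 29 were lower in predicted tumors, with a median difference of -0.49, and 5 had an unadjusted p under 0.05, all lower, where 217 of the 11592 genes did in that direction. SPARC, a collagen-binding matrix protein, read 14.41, 17.12 and 18.04 in references and 15.04, 16.53 and 17.80 in predicted tumors, a difference of -0.65 (interval -1.23 to -0.08). COL4A2, a chain of basement membrane collagen, differed by -0.58 (interval -1.10 to -0.07), and COL5A1, a chain of fibrillar collagen V, by -0.94 (interval -1.79 to -0.08). With slide as a block the median of the list was -0.50. The fibroblast list, which shares 7 genes with it, had 17 of 19 genes lower and a median of -0.40, with PDGFRA, a growth factor receptor of fibroblasts, at -0.60 (interval -1.10 to -0.10). The lowest array of both lists was the reference T130, at 9.69 for collagens and 10.52 for fibroblasts, and no predicted tumor lay outside the reference range. Without T130, left out after its values were seen, 12 predicted tumors lay below the lowest reference on collagens and 8 on fibroblasts. In bulk tissue fewer cells of a type and less RNA per cell cannot be told apart.

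Vessel genes had the same sign by smaller amounts, which changed with slide as a block. Of 15 endothelial genes 14 were lower, with a median of -0.22, and EMCN, a sialomucin of capillaries, differed by -0.42 (interval -0.92 to 0.08). CDH5, the cadherin of endothelial junctions, was near background and gave -0.53. Of 10 smooth muscle and pericyte genes 9 were lower, with a median of -0.29, and MCAM, an adhesion molecule of vessel walls, differed by -0.65 (interval -1.31 to -0.00333). Of 14 complement and acute phase genes 12 were lower, with a median of -0.21. The adipocyte list had 8 of 14 genes lower and a median of -0.15, and the list of melanocytes and Schwann cells 9 of 10 and -0.29, with PMEL, a melanosome matrix protein, at -0.32 (interval -0.64 to -0.01). None of these members passed the test. With slide as a block, the median differences were -0.00363 for the endothelial, -0.0456 for the smooth muscle and -0.12 for the complement list. That of the melanocyte list was -0.0490, and that of the adipocyte list turned to 0.11. The vessel and fat lists thus did not keep their size on the 7 slides that held both groups. Whether slide or the smaller set of tumors gave the shift was not tested.

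**Figure D4:**
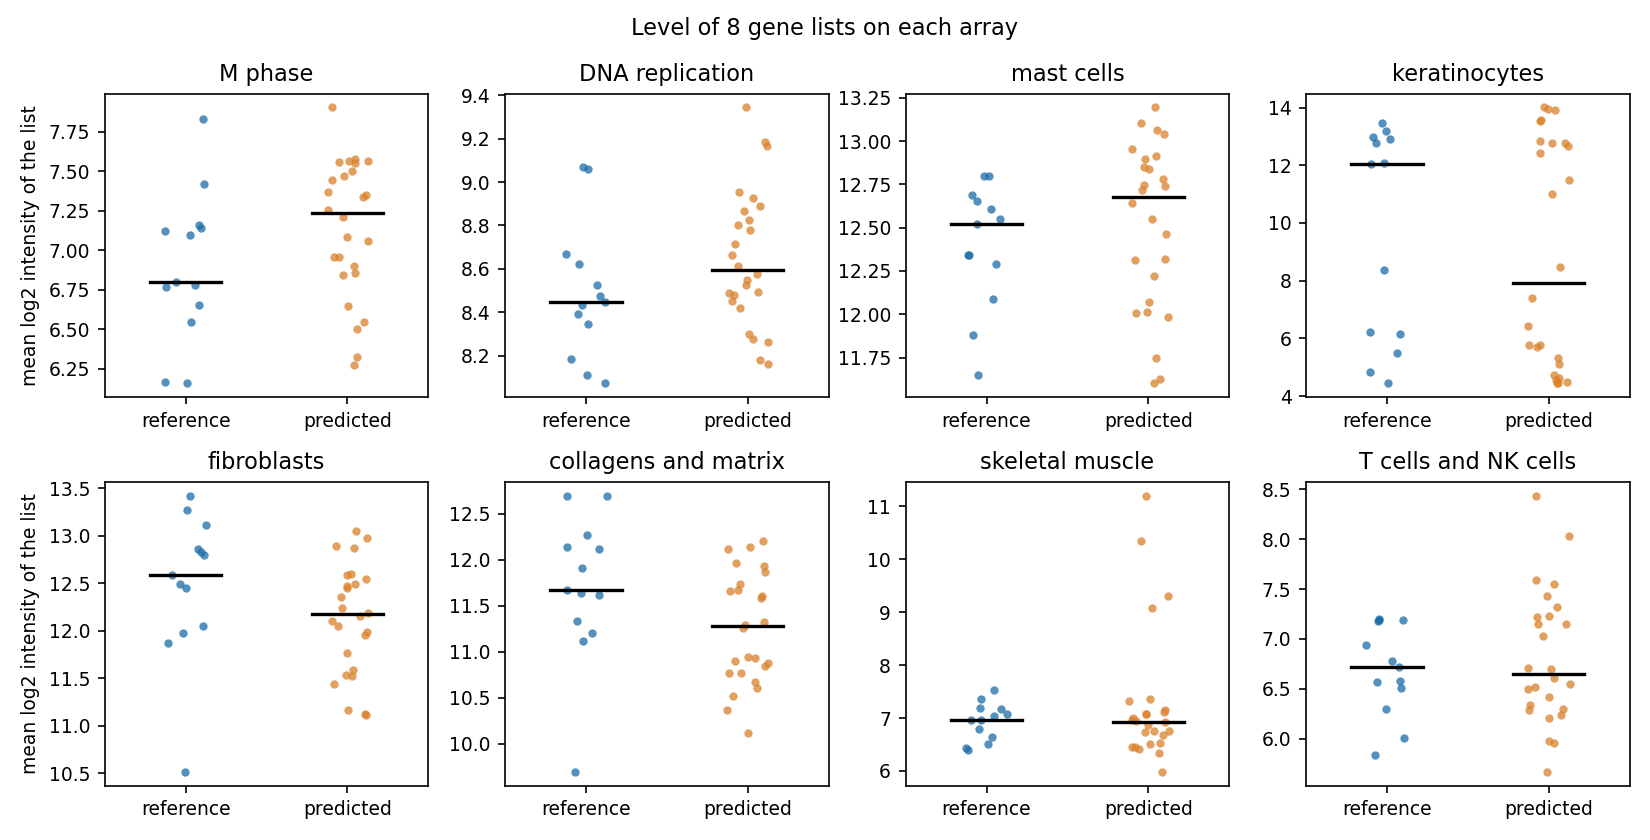
Mean log2 intensity of 8 gene lists on each of the 13 reference and 26 predicted arrays, each point an array and the line the median. M phase has medians of 6.80 and 7.23, collagens and matrix of 11.68 and 11.28, keratinocyte levels fall into separate sets in both groups, and 4 predicted tumors stand alone in the skeletal muscle list.

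Keratinocyte genes divided both groups alike. KRT10, the keratin of the upper epidermis, read 8.96 or less in 20 tumors and 13.69 or more in 19. The lower set held 6 references (46.2%), from 1.59 to 2.52, and 14 predicted tumors (53.8%), from 1.59 to 8.96, and the upper set held 7 references, from 13.69 to 16.55, and 12 predicted tumors, from 14.19 to 16.98. All 13 keratinocyte genes had a lower mean in predicted tumors, with a median of -0.49, none at an unadjusted p under 0.05. The intervals were wide, as for the epidermal membrane protein PERP with -1.41 (interval -4.69 to 1.86) and for PPL, the periplakin of the cornified envelope, with -0.47 (interval -1.36 to 0.41).

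Skeletal muscle genes set 4 predicted tumors apart from the references, and high levels were also found in the undifferentiated class. The mean level of 17 genes was 6.40 to 7.52 in references, and 11.20 in T53, 10.35 in T106, 9.31 in T122 and 9.09 in T103. TNNT3, the troponin T of fast fibers, read 1.69 to 2.27 in references, with none of 13 well above background, and up to 12.29 in predicted tumors, with 5 of 26 well above background. The myosin light chain MYL1 reached 13.03 in a predicted tumor, against 5.74 as the highest reference. The other 22 predicted tumors lay at or below 7.52 on the mean of the list. In undifferentiated tumors the mean of the list read 6.42, 7.25 and 12.38, and TNNT3 reached 13.07. The median difference of the list was 0.34, and 0.76 with slide as a block. Its mean level had medians of 6.96 in references and 6.93 in predicted tumors.

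The ranges of the T cell, B cell, neutrophil and macrophage lists were wider in predicted tumors, and the number of these is also larger. The T and NK cell list read 5.84, 6.72 and 7.20 in references and 5.67, 6.65 and 8.44 in predicted tumors, 8 of which lay above the highest reference. NKG7, a protein of cytotoxic granules, was lower, 11.51 against 10.77 at the median, with a difference of -0.78 (interval -1.39 to -0.18), although 12 of the 15 genes of its list were higher. The B and plasma cell list had 9 of 10 genes with a higher mean, with a median difference of 0.28. Its level had medians of 7.01 in references and 6.93 in predicted tumors, 4 of which lay above the highest reference. That level was highest in T121, at 9.46 against 7.97 in the highest reference. Of 11 neutrophil genes 10 were higher, with a median of 0.32, and the chemokine receptor CXCR2 differed by 0.45 (interval 0.08 to 0.82). T53 had the highest neutrophil level, 9.53. Macrophage genes had 10 of 16 members lower and a median of -0.15, with the lysosomal CD68 at -0.31 (interval -0.60 to -0.01), and the eosinophil list 2 of 4 higher and a median of 0.06, which turned to -0.43 with slide as a block. With the same block the neutrophil median was 0.17 and that of the interferon list 0.0424. The interferon list had 21 of 27 higher, a median of 0.16 and 1 member at an unadjusted p under 0.05, STAT2, a transducer of interferon signals, which was lower by 0.69 (interval -1.25 to -0.12). The level of the interferon list had medians of 9.17 in references and 8.94 in predicted tumors, 3 of which lay above the highest reference. Class II antigen presentation had a median of 0.03, or -0.0324 with slide as a block.

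The median difference was 0.03 over 33 ribosomal protein genes, 0.02 over 36 genes of oxidative phosphorylation and 0.03 over 24 genes of glycolysis and hypoxia, which became 0.00605, 0.0180 and -0.0143 with slide as a block. Over 27 immediate early and heat shock genes it was 0.11, or 0.19 with slide as a block, and of these the chaperone HSPA8 differed by 0.26 (interval 0.02 to 0.50). The mean level of the ribosomal list spanned 14.21 to 14.50 in references and 14.17 to 14.56 in predicted tumors.

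Predicted tumors were a little less alike than references before slide means were removed. The median Pearson r of an array with the other 38, across 43382 probes, was 0.966 ± 0.00298 (mean ± SD, n = 13) in references and 0.961 ± 0.00528 (n = 26) in predicted tumors, a difference of -0.00445 (permutation test, two-sided, p = 0.00682). Of the predicted arrays 11 fell below the lowest reference, T130, and none above the highest. The root mean square distance to the mean of the own group, corrected for group size, was 0.652 ± 0.106 and 0.749 ± 0.0986 on the log2 scale (permutation test, two-sided, p = 0.0087). This test permuted distances to the observed group means, which were not computed anew, so its p is approximate. No predicted array lay outside the reference range of distance, whose highest value was 0.910 in T130. Set against the other 12 references, whose highest distance was 0.763, 11 predicted arrays were farther out, and 15 were below their lowest likeness. On pairs of arrays the median r was 0.968 within the references, 0.960 within the predicted tumors and 0.964 between the groups. These values changed once slide means were removed. Among the arrays of slides with 2 or more tumors of the class, the difference in likeness was -0.00398 (permutation test, p = 0.0121), and after the slide means were removed it was -0.000543 (permutation test, p = 0.733). The distance then differed by -0.000695 (permutation test, p = 0.976), so both estimates were near 0 after that removal. Some of these slides held tumors of a single group, where removing the mean also removes differences between its tumors. How much of the change came from that was not tested. With dim probes left out the difference in likeness was -0.00556 (permutation test, p = 0.0541). Without the 3 dimmest arrays the p values of the permutation test were 0.0178 for likeness and 0.0238 for distance.

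**Figure D5:**
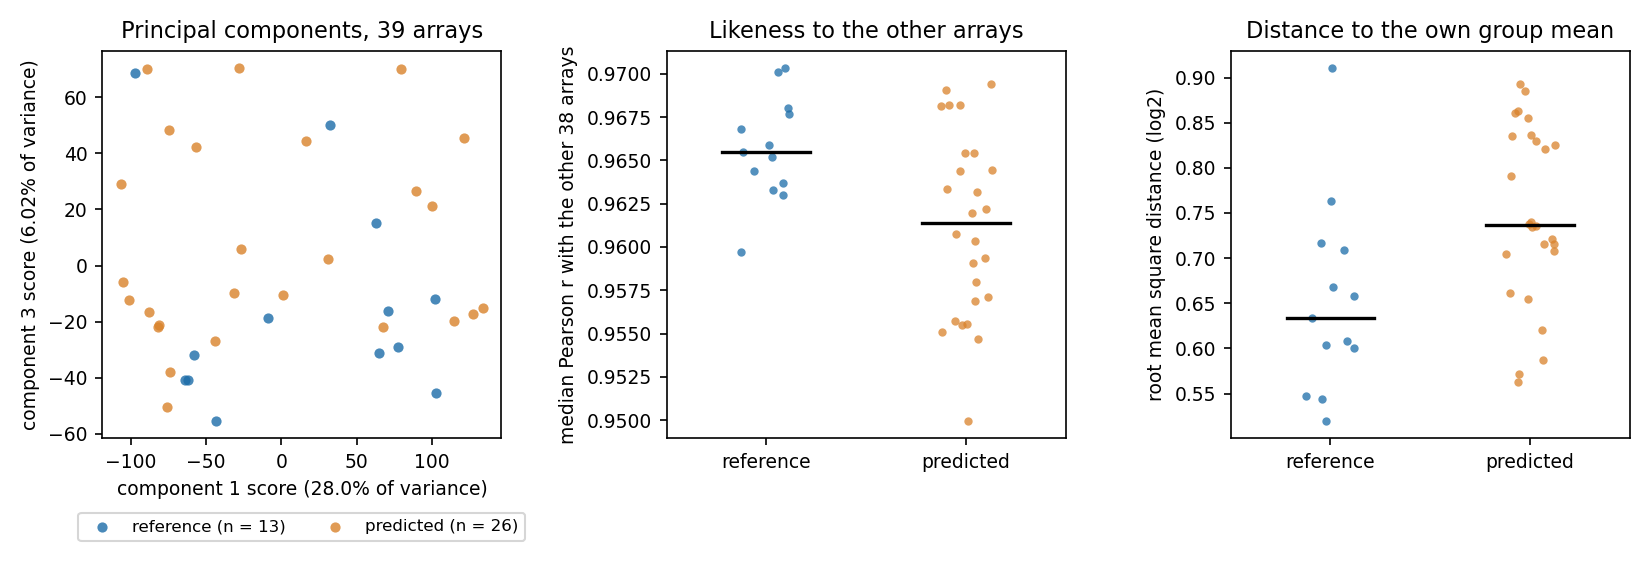
Left, scores of the 39 arrays on components 1 and 3 by group. Middle and right, each array's median Pearson r with the other 38 arrays and its distance to the mean of its own group, with a line at the median. The groups mix on the components, and 11 predicted arrays lie below the lowest reference in likeness.

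None of the first 3 principal components, the ones tested, differed between the groups beyond the threshold, although the third did without T130. The first component, with 28.0% of the variance, had its highest loadings at KRT10, KRT1, the probe named KRT5 in the array files and KRT71 in RefSeq, and KRTDAP, keratins and a keratinocyte gene, and its mean score differed by -20.9 (permutation test adjusted over 3 components, p = 0.471), with 3 predicted tumors below and 4 above the reference range. Tumors with KRT10 in the upper set scored 32.3 or more among references and -26.7 or more among predicted tumors, and those in the lower set from -97.0 to -8.61 and from -107 to -28.1. The second component (8.34%) gave a difference of 10.8 (adjusted p = 0.471, permutation test). The third (6.02%), on which muscle genes such as MYL1 and SMPX and collagen genes such as COL1A1 had opposite signs, gave 21.6 (adjusted p = 0.245, permutation test), and 14.0 without T53 (adjusted p = 0.369, permutation test). Without T130 it was 32.2 (adjusted p = 0.0176, permutation test), an alternative added after the data were seen.

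The contrast was also tested for a difference between the sexes as labeled. The interaction of sex and group called 0 of 43603 probes in limma, with 1286 (2.95%) at an unadjusted p under 0.05, over 38 arrays with a labeled sex.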

How the data were processed

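The deposited scanner files hold 1-color spot intensities, which the authors extracted and background-subtracted with Agilent Feature Extraction 9.5.1. The processed signal was taken to log2, quantile normalized over 51 arrays (limma 3.58.1, R 4.3.3), control spots and outlier spots (2 to 35 per array) were left out, and spots of a probe averaged, giving 43603 probes. The authors' table of normalized intensities served as an alternative, with its blanks, where spots were not found, kept missing. Imputation is stated in the study's methods. Probes were named through RefSeq (UU_Cfam_GSD_1.0), giving 11592 genes. The groups follow the study's list of reference samples and its class prediction. Predicted minus reference was tested with lmFit and eBayes over 39 arrays and adjusted by Benjamini-Hochberg; array values were tested with 100000 permutations (scipy 1.17.1). Each sample is another tumor case, so p-values measure the spread between tumors. Replicate numbers only name samples.

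The tumors compared and the gene lists were chosen with earlier results of these data known. Gene lists used the brightest probe of a gene. The named genes were the 10 with the lowest p in each direction among bright probes with a symbol, since none was called, the 2 with the lowest p of each list, the marker genes and sex-linked probes; COL5A1, KIT, MS4A2, CMA1, MYL1, DEFB124 and the ENSCAFT00000038484 probe were added after their values were seen. Alternatives covered scaling, background, dim probes, outlier spots, slide, scan session, sex, age, array weights, limits and each array left out. 1 gene list is not reported here. The test was run on simulated data first. For arrays, the number of arrays limits the precision.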

Additional observations from a re-analysis of the deposited data

How the results depend on the processing

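The count of 0 called probes held under the 14 other fits, with adjusted p values of at least 0.241, and with each of the 39 arrays left out in turn (0 to 0 probes, adjusted p at least 0.333). It also held without T53, without the 3 dimmest arrays, without T103 and T113 and with spots that carry a background mark left out, alternatives added after the data were seen. Unadjusted p under 0.05 gave 1343 probes, and the methods' t-test gave 0 at the study's adjusted p of 0.01 and fold of 2, and 18 with the same limits on the unadjusted p. The difference in likeness was -0.00556 (p = 0.0541) with the filter on dim probes and -0.000543 (p = 0.733) with slide means removed, where the difference in distance turned to -0.000695 (p = 0.976), all by permutation test; the cause was not tested. Without T130, added after the data were seen, component 3 differed by 32.2 (adjusted p = 0.0176, permutation test). Of the 67 named probes reported here 3 changed sign, CCR3, to -0.23 with slide as a block or shared slides only and -0.0519 in the authors' table, CD74, to 0.0629 with session as a block and 0.0180 with array weights, and DLA-DRB1, to 0.0261 with session as a block. The muscle list had a median of 0.34, and 0.76 with slide as a block. No paired analysis was possible because replicate numbers only name samples and each sample is another tumor. Dim probes, near background on most arrays, carry no usable difference.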

Other observations

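Probes that split the class into widely separated sets of arrays were counted, with a gap of at least 4 on the log2 scale and at least 3 arrays on each side. There were 20 among 43382 probes with a value on every array. Keratin probes of KRT10, KRT1 and KRT2 divided the tumors into the same numbers, 6 references and 14 predicted tumors on the lower side. DLA-DQB1, a class II gene of the dog, was low in 1 reference and 2 predicted tumors, across a gap of 6.60. MTMR10, a myotubularin-related gene, was low in 7 references and 20 predicted tumors. For 5 of the 20 probes one side came from a single group. They were the ENSCAFT00000038484 probe, with 5 references low, and 4 probes of the muscle genes MYL1 and CSRP3, with 4 predicted tumors high. These probes were chosen by their values, so the counts are a description.

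Among the arrays labeled female, T51 read 2.06 at the X-linked probe DN266360, against a median of 10.49 over the 26 arrays so labeled, and its CX010851 level of 2.26 was that of the other females. The SD across arrays was higher among predicted tumors than among references for 76.2% of 31173 probes well above background on at least 13 arrays, with medians of 0.453 and 0.376. These probes share the same arrays and are no independent signs. The predicted arrays lay on 14 slides and the references on 8, and slide was not taken into account in these SDs.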
